A study of Mus musculus with 2 samples.

Results

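Polycomb repressive complex 1 (PRC1) was described through 9 of its genes in G1E, a mouse erythroid progenitor line that grows without limit in culture. The genes were the RING finger subunits Rnf2 and Ring1, the PCGF subunits Bmi1, Pcgf1 and Pcgf2, and the chromodomain paralogs Cbx2, Cbx6, Cbx7 and Cbx8. They were picked by name, not by level, and all 9 were found once each among 43346 annotated genes. The study held 1 group of 2 poly(A) RNA libraries, labelled biological replicates 1 and 2. Both name the same biosample, of a male postnatal line (age 0 day) marked Gata1-, that is, without the transcription factor that drives red cell maturation. No wild type, rescued or treated cells belong to the group, so nothing here compares cells with and without GATA1. A single cell line stands for erythroid progenitors, and no label ties the libraries to separate cultures. Their spread may therefore be technical.

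PRC1 adds ubiquitin to histone H2A through a RING subunit, RNF2 (RING1B) or RING1 (RING1A), which works as a dimer with 1 PCGF protein. The PCGF partner helps to sort the complexes. PCGF2 and BMI1 (PCGF4) build canonical PRC1, in which a CBX protein reads the H3K27me3 mark of Polycomb repressive complex 2 and PHC proteins join complexes together. PCGF1 and the remaining PCGF proteins build variant complexes that carry RYBP or YAF2 in place of CBX. Bmi1 is known for its role in blood stem cell self-renewal and for repressing the Cdkn2a locus, and the balance of CBX paralogs is known to change as blood stem cells differentiate.

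Promoters of 4 genes are shown because they span the range of levels described here: the most abundant member (Bmi1), a transcribed CBX gene (Cbx7), a CBX gene near 0 (Cbx8) and the gene on which the libraries differed most among members with at least 50 counts (Pcgf2). Each window runs from 250 bases before to 50 bases after the RefSeq start site, on the gene's strand and in build GRCm38.p6. Capitals mark every CpG dinucleotide. The windows are chr2:18676768-18677067 (plus strand) for Bmi1, chr15:79932597-79932896 (minus) for Cbx7, chr11:119040864-119041163 (minus) for Cbx8 and chr11:97699599-97699898 (minus) for Pcgf2.
Bmi1: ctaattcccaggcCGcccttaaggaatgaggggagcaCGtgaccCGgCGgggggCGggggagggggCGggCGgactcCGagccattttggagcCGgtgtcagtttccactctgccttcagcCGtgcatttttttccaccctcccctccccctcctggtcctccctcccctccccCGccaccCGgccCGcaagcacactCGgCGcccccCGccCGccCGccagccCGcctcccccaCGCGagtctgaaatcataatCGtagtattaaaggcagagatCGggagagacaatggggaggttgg
Cbx7: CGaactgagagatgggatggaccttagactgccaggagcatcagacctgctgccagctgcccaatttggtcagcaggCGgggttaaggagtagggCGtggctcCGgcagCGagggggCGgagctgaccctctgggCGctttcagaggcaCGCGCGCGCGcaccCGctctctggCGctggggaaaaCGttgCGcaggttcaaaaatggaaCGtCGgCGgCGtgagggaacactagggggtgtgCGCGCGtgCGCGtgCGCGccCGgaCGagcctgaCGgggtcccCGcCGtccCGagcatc
Cbx8: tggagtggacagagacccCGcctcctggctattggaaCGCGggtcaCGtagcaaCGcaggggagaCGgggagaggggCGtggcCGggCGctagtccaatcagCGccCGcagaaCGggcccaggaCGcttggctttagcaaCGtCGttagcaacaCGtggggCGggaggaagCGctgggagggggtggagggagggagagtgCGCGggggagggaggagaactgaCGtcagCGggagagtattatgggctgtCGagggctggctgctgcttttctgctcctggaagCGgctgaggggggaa
Pcgf2: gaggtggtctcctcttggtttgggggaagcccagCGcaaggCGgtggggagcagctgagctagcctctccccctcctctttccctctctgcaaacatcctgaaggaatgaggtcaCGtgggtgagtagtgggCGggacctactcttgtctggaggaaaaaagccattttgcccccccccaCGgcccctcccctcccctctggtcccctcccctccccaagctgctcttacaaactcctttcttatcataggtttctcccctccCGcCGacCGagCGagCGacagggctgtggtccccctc

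Of the 9 genes, 7 had a window in the RefSeq table; Cbx2 and Pcgf1 had none. CpG counts did not sort the members by RNA level. Cbx8 held 24 CpG and Bmi1 held 23, against a median of 13 over 21262 promoter windows of protein-coding genes, and Cbx7 held 33. The remaining windows held 30 CpG for Rnf2, 37 for Ring1 and 31 for Cbx6. Pcgf2 was the poorest with 10 CpG and an observed-to-expected CpG ratio of 0.362, while the other 6 lay between 0.708 (Bmi1) and 0.992 (Cbx7). The Pcgf2 window sits at the start of transcript Pcgf2-206, and the Cbx7 window lies 6 bases from the start of Cbx7-203, so other starts of these genes are not covered. Motifs were searched on both strands as exact letters. The E-box CACGTG was present in the windows of Bmi1, Pcgf2, Cbx6 and Cbx8, once each, and in 7.84% of all windows. The GATA motif TGATAA occurred once, in Pcgf2 (7.60% of all windows), and AGATAA in none of the 7 (9.65%). The ETS motif CCGGAA occurred once, in Ring1 (18.7%), and the E2F motif GCGGGAAA in none (1.41%). AGATAA and TGATAA share their last 5 letters and cannot lie on the same bases of a strand. A match says only that the letters are present.

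Replicate 1 held 31633573 expected counts on annotated genes and replicate 2 held 56978193. Expected counts are estimated reads per gene, and TPM divides them by effective length and scales each library to the same total. All 8 erythroid marker genes reached 1 TPM in each library, and Hba-a1, Gfi1b and Kit were the highest by mean level. The summed TPM of the 5 lymphoid markers was 2.60 and 0.19, of the 6 myeloid markers 12.4 and 6.11, and of the 5 stromal and endothelial markers 2.34 and 0.46, in replicates 1 and 2. In the myeloid list Elane had 0 counts in both libraries, Mpo was at 0.34 and 0.25 TPM, and only Cd68 reached 1 TPM in each. Megakaryocyte markers summed to 38.7 and 53.6 TPM, with 3 of 5 at 1 TPM or above in each library, and mast cell markers to 4.75 and 15.3 TPM, nearly all from Cpa3, with Mcpt8 at 0. The part of other cell types in the levels below was not tested. In a bulk sample, fewer cells with a transcript and less transcript per cell cannot be told apart.

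Of the 9 PRC1 genes, 6 reached 1 TPM in each library, the rule taken here for an expressed gene. The same rule held for 42.5% of 21474 protein-coding genes. The expressed members were Bmi1, Rnf2, Ring1, Pcgf1, Cbx6 and Cbx7. Pcgf2 passed in replicate 1 alone, and Cbx8 and Cbx2 were under 1 TPM in both. The median of the members' mean levels was 5.93 TPM, beside 0.365 TPM over all protein-coding genes. Among expressed genes alone the medians were 26.2 TPM for the 6 members and 23.5 TPM for 9118 protein-coding genes. In the plot of levels by gene, Bmi1 and the RING genes lie above Cbx6 and Cbx7, and Cbx8 and Cbx2 lie lowest.

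**Figure D1:**
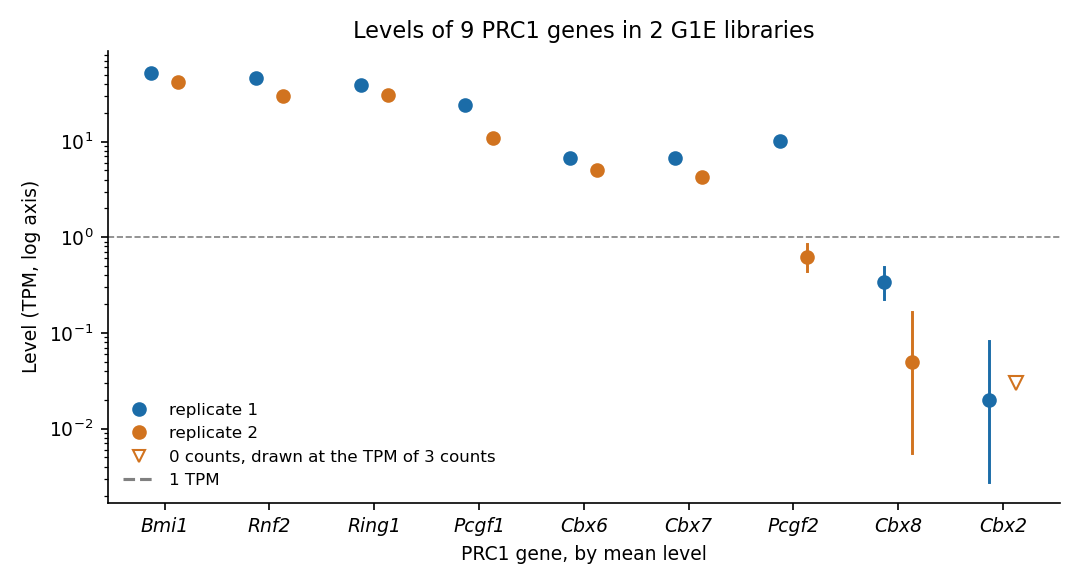
Level of each PRC1 gene in TPM (log axis) in replicates 1 and 2; vertical lines are exact Poisson 95% intervals from the counts and cover counting error only. Bmi1, Rnf2 and Ring1 lie between 30.2 and 52.2 TPM, Cbx6 and Cbx7 between 4.22 and 6.79 TPM, Pcgf2 falls on both sides of 1 TPM, and Cbx2 had 0 counts in replicate 2.

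The order of the levels was set against the spread between libraries. That spread was an SD of 0.56 on the log2(TPM + 1) scale, pooled over the 9118 expressed protein-coding genes after rescaling to protein-coding totals. It gives a 95% bound of 1.10 for the mean difference of a pair of genes. Of the 36 pairs of members, 28 kept their order from library to library and lay further apart than this bound. The share of such pairs among other genes was not computed, so the count only describes these genes. Many of the 28 pairs hold Cbx2 or Cbx8, which lie near 0 and outside the expressed genes that gave the spread. In 3 pairs the direction itself changed between the libraries, and 5 more stayed within the bound. Bmi1 and Rnf2, the 2 highest genes, differed by 0.32 ± 0.19 on the log2 scale (SD, n = 2), inside the bound. Rnf2 and Ring1 differed by 0.10 ± 0.20 and changed order, and Ring1 exceeded Pcgf1 by 1.04 ± 0.54, just inside the bound (SD, n = 2 for both). Going down, the first step between neighbours to pass the bound was Pcgf1 over Cbx6, at 1.33 ± 0.50 (SD, n = 2). Cbx6 and Cbx7 differed by 0.11 ± 0.15, and Cbx7 and Pcgf2 changed order between the libraries (SD, n = 2). Pcgf2 over Cbx8 passed at 1.85 ± 1.73, from 3.07 in replicate 1 and 0.63 in replicate 2, so the pass rests on replicate 1, while Cbx8 over Cbx2, at 0.23 ± 0.23, did not (SD, n = 2 for both). The smallest two-sided p of an exact sign-flip permutation test over 2 libraries is 0.5, and no such test was made. The bound does not cover errors common to the libraries.

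The RING genes, which carry the ubiquitin ligase activity, had levels that could not be ordered. Rnf2 (ENSMUSG00000026484.9, minus strand of chromosome 1 from 151458004 to 151500955 of GRCm38) had 1764 counts in replicate 1, a level of 45.8 TPM, and 3481 counts in replicate 2, a level of 30.2 TPM. Ring1 (ENSMUSG00000024325.8, minus strand of chromosome 17 from 34020792 to 34024680) stood at 38.6 and 31.0 TPM, on 1625 and 2378 counts. Rnf2 made up 51.8% ± 3.46 of their summed TPM (SD, n = 2), with 54.3% in replicate 1 and 49.4% in replicate 2. By expected counts, which do not correct for length, the share was 52.0% and 59.4%, so the direction between the libraries turned. The deposited credibility intervals of the genes were apart in replicate 1, at 40.5 to 48.1 TPM for Rnf2 against 34.9 to 39.8 TPM for Ring1. They overlapped in replicate 2, at 27.0 to 31.4 TPM against 27.8 to 32.0 TPM. These gene levels include noncoding transcripts. The noncoding Rnf2-202 held 21.82 and 5.82 TPM in replicates 1 and 2, and coding transcripts held 52.24% and 79.24% of the TPM of Rnf2. Its leading coding transcript, Rnf2-201, stood at 19.55 and 23.22 TPM. Ring1-201, the only coding transcript of Ring1, stood at 32.88 and 23.22 TPM. The higher level of Rnf2 in replicate 1 thus did not hold for these coding transcripts. By mean level Rnf2 lay at percentile 84.7 and Ring1 at percentile 83.5 of protein-coding genes. The end of Rnf2 overlaps Trmt1l on the other strand by 158 bases, and 2.94% of its 36-mers are also found in that gene, so a small part of its reads cannot be placed without strand. Ring1 shared no 36-mer with another gene.

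Among the PCGF members Bmi1 was the highest in each library, and Pcgf2 differed most between the libraries. Bmi1 (ENSMUSG00000026739.9, plus strand of chromosome 2 from 18677018 to 18686629) reached 52.2 and 41.9 TPM in replicates 1 and 2, on 2840 and 4579 counts. Its mean of 47.1 ± 7.29 TPM (SD, n = 2) was the highest of the 9 genes, above 87.1% of protein-coding genes. Pcgf1 (ENSMUSG00000069678.6, plus strand of chromosome 6 from 83077869 to 83080855), which founds the variant complex with KDM2B and BCOR, stood at 24.1 and 10.95 TPM on 345 and 368 counts. Pcgf2 (ENSMUSG00000018537.12, minus strand of chromosome 11 from 97688823 to 97700497), also known as Mel18, gave 308 counts in replicate 1, or 10.2 TPM, and 39 counts in replicate 2, or 0.62 TPM. Exact Poisson 95% intervals, which cover counting error only, ran from 9.11 to 11.4 TPM and from 0.442 to 0.851 TPM. The deposited credibility intervals of Pcgf2 ran from 8.61 to 11.5 TPM in replicate 1 and from 0.513 to 1.13 TPM in replicate 2. The latter interval spans the 1 TPM rule for an expressed gene. Of the 36-mers of Pcgf2, 1.82% were also found in other genes, 691 in number. By TPM, replicate 1 was the higher library for each of the 3 genes, most so for Pcgf2. For Bmi1 the direction in scaled counts, given below, depended on the scaling.

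Between the PCGF proteins of canonical PRC1, Bmi1 held 83.6% of the summed TPM of Bmi1 and Pcgf2 in replicate 1 and 98.5% in replicate 2. Widening the class to all 6 PCGF genes left the share of Bmi1 at 45.7% ± 0.82 (SD, n = 2). Pcgf1 followed with 20.9% and 12.1%, and Pcgf6, of a germline gene-repressing complex, with 7.31% and 20.4% in replicates 1 and 2. Pcgf3 held 14.1% and 11.8%, and Pcgf5 held 3.74% and 8.68%. Bmi1 thus held the highest share in each library, while Pcgf1 and Pcgf6 changed order. Pcgf3, Pcgf5 and Pcgf6 are named outside the naming rule, to complete the family. Bmi1 shares 23.7% of its 36-mers with the processed pseudogene Gm5946 and Pcgf1 shares 20.6% with Gm8930. Gm5946 was given 1.14 and 1.03 counts, and Gm8930 has no matched value here. Reads shared in this way were divided by the authors' estimate, so the levels of Bmi1 and Pcgf1 carry that uncertainty.

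**Figure D2:**
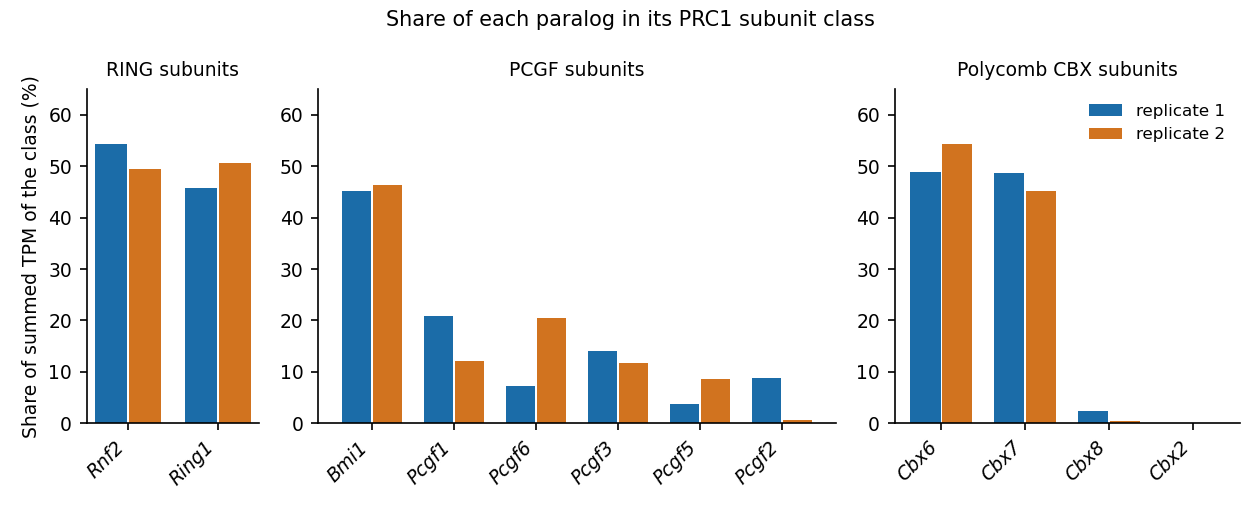
Share of each paralog in the summed TPM of its subunit class (percent), with 1 bar for each library; the PCGF panel holds all 6 PCGF genes and the CBX panel the 4 CBX members. Rnf2 holds 54.3% and 49.4% of the RING sum, Bmi1 holds 45.2% and 46.3% of the PCGF sum, and Cbx6 with Cbx7 hold nearly all of the CBX sum.

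Among the 4 CBX members nearly all of the level came from Cbx6 and Cbx7. They lie 81118 bases apart on chromosome 15, with Apobec3 between them. Cbx6 (ENSMUSG00000089715.7, minus strand from 79823896 to 79834688) stood at 6.79 and 5.07 TPM on 525 and 993 counts. Npcd, on the same strand, overlaps Cbx6 by 10342 bases. Of the 36-mers of Cbx6, 4.88% are also found in Npcd, which was given 0 and 0.66 counts. Cbx7 (ENSMUSG00000053411.12, minus strand from 79915807 to 79971119), the paralog linked to stem cell self-renewal, stood at 6.76 and 4.22 TPM on 480 and 608 counts. Their deposited credibility intervals overlapped in both libraries, at 5.74 to 8.81 TPM against 6.47 to 8.64 TPM in replicate 1 and at 4.61 to 6.17 TPM against 4.02 to 5.57 TPM in replicate 2. Cbx6 made up 51.5% ± 3.87 and Cbx7 46.9% ± 2.42 of the summed TPM of the 4 CBX members (SD, n = 2 for both). Among expressed protein-coding genes they lay low, at percentiles 15.8 and 14.5 of that set.

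Cbx2 and Cbx8, from the other CBX locus, were at or near 0. Cbx2 (ENSMUSG00000025577.7, plus strand of chromosome 11 from 119022962 to 119031270) had 2 counts in replicate 1, which is 0.02 TPM with an upper Poisson 95% limit of 0.082 TPM. It had 0 counts in replicate 2, where the upper Poisson 95% limit is 0.0365 TPM. The deposited credibility interval reached 0.0957 TPM there and 0.207 TPM in replicate 1. Cbx8 (ENSMUSG00000025578.9, minus strand from 119036305 to 119040969) had 28 counts and 0.34 TPM in replicate 1 and 2 counts and 0.05 TPM in replicate 2. Its exact Poisson 95% interval in replicate 1 ran from 0.225 to 0.489 TPM. Protein-coding genes with no count in replicate 2, a set without Cbx8, had a median of 0.04 TPM and a 95th percentile of 0.53 TPM in replicate 1. The 0.34 TPM of Cbx8 lay between these values. Cbx2 and Cbx8 are 5034 bases apart, and Enpp7, 29740 bases on the far side of Cbx2, had 1 and 0 counts. Near Cbx6 and Cbx7, Apobec3, whose end overlaps that of Cbx7 by 100 bases on the other strand, was at 23.6 and 9.95 TPM. Other neighbours there were near 0, with Nptxr at 0.02 and 0.01 TPM, Pdgfb at 0.06 and 0 TPM and Npcd at 0 and 0.01 TPM.

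The summed level of the CBX members was below that of the RING and PCGF genes. It came to 13.9 and 9.34 TPM in replicates 1 and 2. The RING genes summed to 84.4 and 61.2 TPM, and Bmi1 and Pcgf2, the PCGF genes of canonical complexes, to 62.4 and 42.5 TPM. With Pcgf1, which builds a complex without CBX, the PCGF sum was 86.6 and 53.5 TPM. The RING sum was 6.07 and 6.55 times the CBX sum, and the sum of the 3 PCGF members 1.02 and 0.874 times the RING sum. These are ratios of RNA per length, with noncoding transcripts included, and say nothing of protein amounts.

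The ratio between the libraries was then taken from counts scaled by TMM library sizes. Of the 7 members with at least 50 counts, 1 was 2-fold apart, where 25.4% of 10467 protein-coding genes were apart by the same rule and 11.2% were lower in replicate 2. That gene was Pcgf2, whose log2 ratio of replicate 2 over replicate 1 was -3.87, a 14.6-fold difference. By this ratio Pcgf2 lay at percentile 3.03 of the protein-coding genes. The other 6 ran from -0.81 for Pcgf1 to 0.08 for Rnf2, with -0.56 for Cbx7, -0.35 for Ring1, -0.21 for Bmi1 (0.03 with DESeq2 size factors) and 0.02 for Cbx6. The median over the 7 was -0.35 beside 0.01 over all protein-coding genes. With 1 library against 1, no p-value was computed. Replicate 1, the shallower library, had counts on 18169 protein-coding genes and replicate 2 on 13730, and 7728 protein-coding genes had 0 counts in replicate 2. Of the lymphoid, stromal and endothelial markers, 3 had at least 50 counts in total. Cd3e had 55 and 1 counts in replicates 1 and 2, Col1a1 58 and 1, and Pecam1 53.28 and 21. All 3 passed the filter through replicate 1, so their lower level in replicate 2 was largely set by the filter. Their log2 ratios were -6.11 for Cd3e, -6.19 for Col1a1 and -2.22 for Pecam1. Markers of the other non-erythroid lists with at least 50 counts went both ways. The myeloid Cd68 stood at -1.37 and the mast cell Cpa3 at 1.745. Megakaryocyte markers ran from -0.22 for Gp9 to 1.73 for Ppbp. The part of these differences in that of Pcgf2 was not tested. Cbx2 and Cbx8 had too few counts for this rule.

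**Figure D3:**
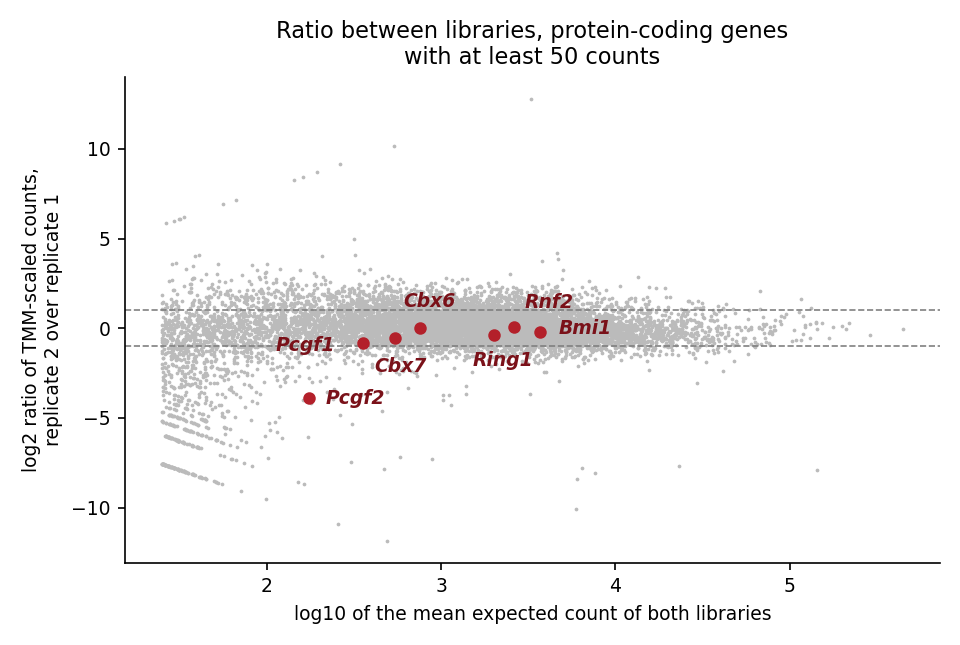
Log2 ratio of TMM-scaled counts, replicate 2 over replicate 1, against the log10 mean count for protein-coding genes with at least 50 counts (grey points); red points are the 7 PRC1 genes and dashed lines mark a 2-fold difference. Pcgf2 lies at -3.87 and the other 6 lie between -0.81 and 0.08.

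The GC content of transcripts moved with this ratio over all genes. Across the 10467 protein-coding genes, GC-poor genes tended to be higher in replicate 2, with a Spearman correlation of -0.476 (across genes, which share the 2 libraries and are not independent). Rnf2 and Bmi1 were the GC-poor members, at 41.3% and 40.4%, against a median of 50.04%. When the trend was subtracted, an alternative chosen after seeing the data, Bmi1 stood at -1.37 and became 2-fold apart, and Rnf2 stood at -0.94. Pcgf2, at 55.4% GC, stayed 2-fold apart at -3.55. Read length, as implied by the deposited effective lengths, also differed, at 36 nt in replicate 1 and 55 nt in replicate 2. Its part in these ratios was not tested.

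For 4 of the 9 genes 1 transcript held the highest share of TPM in each library: Ring1, Bmi1, Cbx6 and Cbx7. The share of all genes that keep their lead was not computed, so this count is not a trait particular to the members. Ring1-201, of 406 codons, held 85.2% and 75.02% of the level of Ring1, the rest going to transcripts with a retained intron. For Bmi1 the lead was Bmi1-202, at 68.6% in replicate 1 and 47.3% in replicate 2. Bmi1-201, which is 3594 nt long against 2747 nt, held 10.7% and 29.5%. Both encode 324 codons, so the protein predicted from either is of the same length. Cbx6-203, of 414 codons, held 53.7% and 66.2% of the level of Cbx6. In Cbx7 the lead, Cbx7-203, encodes the short protein of 158 codons and held 84.3% and 61.0%, while Cbx7-201 encodes 251 codons and held 12.0% and 21.4%. The short form of Cbx7 therefore led in both libraries, with the long form second.

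For the other 5 genes the lead differed or had no reads behind it. Rnf2 was led by Rnf2-202, a noncoding transcript of 570 nt, with 47.6% in replicate 1, and by Rnf2-201, of 336 codons, with 76.9% in replicate 2. By counts Rnf2-201 led in both, with 1427 of 1764 and 3270 of 3481 counts. Pcgf1 was led by the retained-intron transcript Pcgf1-206 (426 nt, 48.5%) in replicate 1 and by Pcgf1-201 (247 codons, 49.0%) in replicate 2. The reads of Pcgf2 in replicate 1 were spread over all 7 of its transcripts, led by Pcgf2-203 of 158 codons at 48.2%. In replicate 2 Pcgf2-203 had 0 counts and 39 counts fell on Pcgf2-204, Pcgf2-206 and Pcgf2-207. Cbx8-201 held all 28 counts of Cbx8 in replicate 1, and the counts of Cbx2 and Cbx8 in replicate 2 were too few to give a lead. Ranked by expected counts instead, the lead was the same for 7 of 9 genes, and among protein-coding transcripts alone also for 7. Both counts of 7 include Cbx8, whose lead in replicate 2 rests on 1.17 counts.

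**Figure D4:**
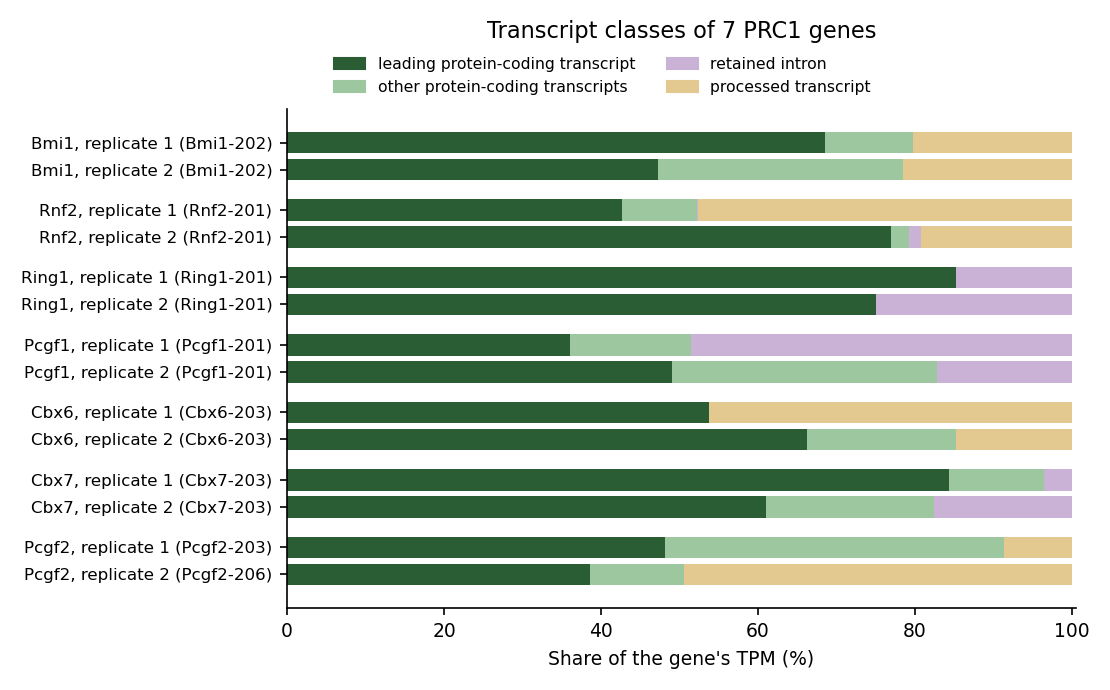
Share of each gene's TPM (percent) given to its leading protein-coding transcript (named at the left), other protein-coding transcripts, retained-intron transcripts and processed transcripts, for 7 PRC1 genes in each library. Of the genes shown, all but Pcgf2 have the same leading protein-coding transcript in both libraries, and that of Rnf2 holds 42.6% in replicate 1 and 76.9% in replicate 2.

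Most other genes of the complex were transcribed. Of 32 further PRC1 genes, 27 were expressed by the same rule (42.5% of protein-coding genes were), with a median of 32.3 TPM over the 32. In the canonical list the PHC genes, which join complexes through their SAM domains, were the highest, with Phc1 at 96.9 ± 78.9 TPM, Phc2 at 57.2 ± 15.3 TPM and Phc3 at 17.7 ± 10.3 TPM (SD, n = 2 for all). Phc1 was at 153 and 41.2 TPM in replicates 1 and 2, and was 2-fold apart in scaled counts too (log2 ratio -1.26, or -0.96 with the GC trend subtracted). Scmh1 and Scml4 were under 1 TPM in both libraries. Together 4 of 7 canonical genes were expressed.

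Variant complex genes were expressed in 23 of 25 cases. Csnk2b, the regulatory subunit of casein kinase 2, was at 701 ± 512 TPM, Tfdp1, a partner of E2F factors, at 241 ± 71.8 TPM and Bcor, the corepressor bound by PCGF1, at 101.3 ± 48.5 TPM (SD, n = 2 for all). The 2 exceptions, named after their values were seen, were Bcorl1 at 4.3 and 0.68 TPM and Auts2 at 1.17 and 0.31 TPM. Both were over 1 TPM in replicate 1 alone. The CBX-replacing subunits Rybp and Yaf2, also named outside the naming rule, were at 11.4 ± 3.08 and 16.7 ± 5.55 TPM (SD, n = 2 for both), and each was above every CBX member in both libraries. Kdm2b, the CpG-binding partner of PCGF1, was at 39.1 and 14.3 TPM. Scaled counts of 3 of the 25 variant genes were 2-fold lower in replicate 2, against 11.2% of protein-coding genes. They were Csnk2b, Bcorl1 and Auts2. Pcgf6 and Skp1a were 2-fold higher, at 1.17 and 1.69 on the log2 scale, which with the 3 lower genes makes 5 of 25 apart, against 25.4%. With the GC trend subtracted Pcgf6 and Skp1a stood at 0.70 and 0.90, and Yaf2 became 2-fold lower at -1.27.

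Genes that remove ubiquitin from H2A were expressed in 7 of 8 cases. Bap1, the deubiquitinase of the Polycomb repressive deubiquitinase complex, was at 66.1 ± 1.11 TPM, Usp21 at 35.5 ± 6.14 TPM and the BAP1 cofactor Asxl1 at 33.5 ± 1.65 TPM (SD, n = 2 for all). Asxl3 had 0.15 and 0 TPM. The HP1 genes, chromodomain paralogs that read H3K9 methylation and not H3K27me3, were higher than every CBX member in both libraries. Cbx3 was at 139 ± 29.6 TPM, Cbx5 at 61.8 ± 4.72 TPM and Cbx1 at 60.1 ± 25.6 TPM (SD, n = 2 for all). Their sum was 15.7 times that of the 4 CBX members in replicate 1 and 32.5 times in replicate 2. Cbx1 and Cbx5 were 2-fold higher in replicate 2 in scaled counts, at 1.02 and 1.08 on the log2 scale, but not with the GC trend subtracted (0.76 and 0.37). The Cdkn2 locus, a textbook target of PRC1, was near 0, with Cdkn2a at 0.05 and 0.37 TPM and Cdkn2b at 0.06 and 0 TPM.

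**Figure D5:**
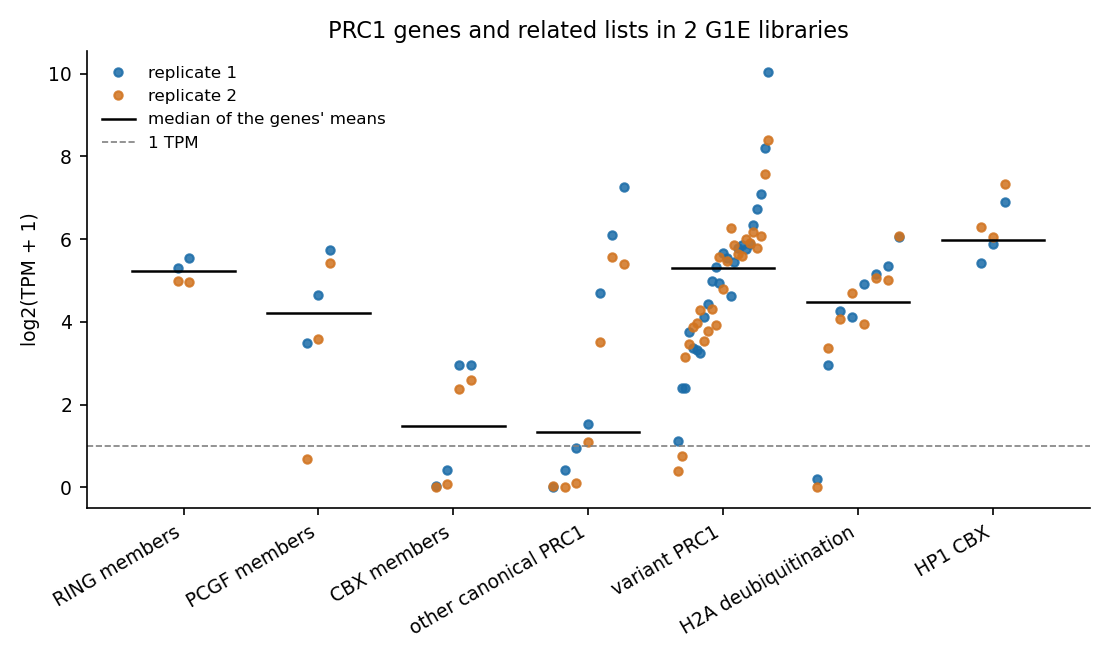
Levels of single genes as log2(TPM + 1) in replicates 1 and 2, grouped by list. Black lines are medians, per list, of log2(mean TPM + 1) and the dashed line is 1 TPM. The CBX members and the other canonical genes include members near 0, while the 3 HP1 genes range from 42.1 to 160 TPM over the libraries.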

How the data were processed

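Poly(A) RNA of G1E cells was measured in 2 libraries of 1 group. Per the deposited notes, the tables of each library came from alignments to the transcriptome with assembly mm10 and annotation M4, unpooled; no quantifier or strand setting is named there. Expected counts were deposited unnormalised, with 0.0363% and 0.00942% on entries naming no gene, which were left out. TPM and FPKM values were deposited per effective length, and TPM scaled over all entries of a library. The deposited signal columns hold bounds of a TPM credibility interval of unstated level. The deposited percent column is each transcript's share of its gene's TPM. Names and positions came from GENCODE M21 (GRCm38), which matched 42462 of 43346 gene identifiers without version. Promoters came from RefSeq (GRCm38.p6).

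Expected counts were rounded, filtered and scaled by TMM with edgeR 4.0.16 in R 4.3.3; ratios had 0.5 added to each count. DESeq2 1.42.0 gave alternative size factors. Levels were compared as log2(TPM + 1), which compresses differences at low levels. Intervals on counts are exact Poisson at 95% and cover counting error only. Protein-coding genes held 84.4% of TPM in replicate 1 against 75.1% in replicate 2, so TPM of a like gene reads lower in the latter. Steps were tested on simulated counts, which had a smaller spread between libraries than the data and no GC trend. That test checks the calculation and does not give an error rate for these libraries. Python 3.11.15, pandas 2.3.3, scipy 1.17.1 and statsmodels 0.14.6 were used.

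All 9 members are named with their values; of each other list, up to 3 highest genes and up to 3 under 1 TPM in both libraries, and further genes are said to be outside this rule. No genes of similar pattern were sought, since 1 condition holds no pattern. Members and lists were chosen with earlier results of these data known. The values of 1 gene in the list of other canonical subunits are not reported here.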

Additional observations from a re-analysis of the deposited data

How the results depend on the processing

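The count of 6 expressed members ran from 5 (at 5 TPM) to 7 (at 0.5 TPM), and the 27 other PRC1 genes from 25 to 29, over all alternatives tried. The 28 ordered pairs became 29 with a pseudocount of 0.1 or a robust spread and 25 with either library alone. The 1 member 2-fold apart between libraries became 3 without a filter on counts, 2 by ratio of TPM and 2 with the GC trend subtracted; DESeq2 size factors, total counts and TMM over all genes left it at 1. The GC trend and TMM over all genes were chosen after seeing the data. DESeq2 size factors moved the median ratio of protein-coding genes to 0.25 and TMM over all genes to 0.26, against 0.01. Under both, Bmi1 turned from -0.21 to 0.03 and 0.04. The 4 members with the same leading transcript became 7 by expected counts and 7 among protein-coding transcripts, both with Cbx8 on 1.17 counts; the cause was not tested. By expected counts the share of Rnf2 moved from 51.8% to 55.7% and that of Cbx7 from 46.9% to 42.1%. Leaving out a library moved the level of Pcgf2 from 5.42 TPM to 0.62 or 10.2 TPM. With 2 libraries no test reaches a small p. No paired analysis was possible because there was 1 group.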

Other observations

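Levels of the nearest genes of the members differed widely. Commd3, which ends 786 bases before Bmi1 on the same strand, had 1129 counts and 54.0 TPM in replicate 1 and 4228 counts and 109 TPM in replicate 2, beside 52.2 and 41.9 TPM for Bmi1. Psmb3, a proteasome subunit gene 2901 bases beyond the start of Pcgf2, was at 395 and 357 TPM, and Cisd3, 201 bases beyond its end on the other strand, at 11.7 and 3.66 TPM. H2-Ke6, 1352 bases from Ring1, was at 56.9 and 53.8 TPM. Some other nearest genes were low or near 0. Spag6 beside Bmi1 was at 0.65 and 0.02 TPM, and H2-K1 beside Ring1 at 0.29 and 1.2 TPM. Beside Pcgf1, Tlx2 was at 0.03 and 0 TPM and Lbx2 at 0.17 and 0.18 TPM. Beside Rnf2, Swt1 was at 7.28 and 6.45 TPM and Fam129a at 0.12 and 0.05 TPM. These genes were named for their position after their values were seen.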
